A study of Mus musculus with 54 samples.

Results

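The enteric nervous system was followed through 8 genes in RNA of the mouse small intestine: the neuron genes Snap25, Uchl1, Elavl4, Prph and Tubb3, the receptor gene Ret, and the glia genes Sox10 and S100b. They were taken by symbol as markers of these cells, out of 25229 gene symbols in the deposited counts, and all 8 passed the filter on low counts in every comparison. The series compares the duodenum, jejunum and ileum of females at day 7 of lactation with those of virgin females and virgin males matched for age, all fed a standard diet. Each of the 9 groups had 6 libraries, and the labels give no strain, age, genotype or origin of each library, so p-values measure the spread between libraries, which may be technical. The tissue label names only the gut section, with no layer of the wall. The library labelled lactating duodenum 3 has a liver profile and held 0.440 CPM of the 8 genes summed, and lactating jejunum 3 resembles duodenum and held 66.9 CPM. Both were left out, so 52 of 54 libraries were used, with 5 in the lactating duodenum and lactating jejunum groups.

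Neurons and glia of the gut wall arise from neural crest cells and sit in a plexus between the muscle layers and another below the mucosa. They set motility, secretion and local blood flow. Because the epithelium and the muscle supply most of the RNA of a whole gut piece, neural transcripts are a minor share of it and can change when another layer is sampled more or less heavily.

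Gene reads ran from 18479722 to 27604041 per library, and the strand used held 97.9% to 98.6% of the stranded gene reads. Every one of the 8 genes had reads in each of the 52 libraries, from 6 reads of Sox10 to 736 of Prph. CPM, the reads of a gene relative to all gene reads of its library, are scaled here across libraries with edgeR's TMM factors. Divided by exonic length, the mean levels ran from Uchl1 at 7.11 CPM per kb, through Prph at 6.66, Tubb3 at 3.92, Ret at 2.10, S100b at 1.28, Snap25 at 1.21 and Elavl4 at 0.741, to Sox10 at 0.4995. The 8 summed genes had a median of 38.9, 38.3 and 36.5 CPM in the lactating, virgin female and virgin male duodenum. The median was 48.2, 48.2 and 59.0 CPM in the jejunum and 65.5, 90.7 and 105 CPM in the ileum. The ileum of virgin animals therefore stood highest, and the lactating ileum lay between it and the jejunum. The duodenum libraries also differed in pancreas transcripts. A list of 10 pancreas genes summed to 7.11 to 14108 CPM in lactating, 7.76 to 8939 CPM in virgin female and 7.99 to 15615.5 CPM in virgin male duodenum. No jejunum or ileum library used exceeded 8.32 CPM. The part of pancreas RNA in the duodenal levels was not tested.

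Snap25 encodes a protein of the complex that fuses synaptic vesicles with the membrane; it lies on the plus strand at chr2:136713453-136782428 (GRCm38, GENCODE M21). Uchl1, at chr5:66676091-66687234, encodes a ubiquitin hydrolase abundant in neurons and also known as PGP9.5. Elavl4, on the minus strand at chr4:110203722-110351909, encodes the neuronal RNA-binding protein HuD. Prph, at chr15:99055174-99058978, encodes peripherin, an intermediate filament of peripheral neurons, and Tubb3, at chr8:123411424-123422015, a neuronal tubulin. Ret, on the minus strand at chr6:118151745-118197718, encodes the receptor tyrosine kinase for ligands of the GDNF family, on which the formation of enteric neurons depends. Sox10, on the minus strand at chr15:79154908-79165240, encodes a transcription factor of neural crest progenitors and glia, and S100b, at chr10:76253853-76261159, a calcium-binding protein of glia. Opposite-strand neighbours (Gm14053 at Snap25, Uchl1os at Uchl1, Dip2a at S100b) are separated by strand in these counts, whereas reads shared between Tubb3 and the same-strand readthrough gene Gm20388 make Tubb3 less certain.

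Upstream sequence was available for 5 of the 8 genes, in RefSeq on GRCm38.p6. The 250 bases before the start are shown for the genes called lower in the lactating ileum that had an entry (Uchl1, Elavl4 and Prph), and for Tubb3, whose estimate in the ileum did not pass. For short motifs, 6 words were searched on both strands, and matches are in capitals. They were TATAAA (in 12.4% of 32851 promoters of this length), GGGCGG (32.7%), CAGCTG (13.0%), CAGCACC (5.73%), GGACAG (18.7%) and ACAAAG (16.5%).
Uchl1, plus strand, chr5:66675871-66676120: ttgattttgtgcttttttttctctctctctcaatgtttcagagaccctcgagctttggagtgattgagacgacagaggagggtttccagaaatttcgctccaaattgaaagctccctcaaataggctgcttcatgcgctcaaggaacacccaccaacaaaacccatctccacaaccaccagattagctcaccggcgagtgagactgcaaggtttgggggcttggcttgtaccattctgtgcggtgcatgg
Elavl4, minus strand, chr4:110351912-110352161: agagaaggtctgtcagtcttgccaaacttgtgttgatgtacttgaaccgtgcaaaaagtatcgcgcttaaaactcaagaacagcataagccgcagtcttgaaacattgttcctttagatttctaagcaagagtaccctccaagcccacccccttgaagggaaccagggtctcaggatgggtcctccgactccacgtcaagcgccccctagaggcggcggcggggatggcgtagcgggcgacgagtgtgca
Prph, plus strand, chr15:99054924-99055173: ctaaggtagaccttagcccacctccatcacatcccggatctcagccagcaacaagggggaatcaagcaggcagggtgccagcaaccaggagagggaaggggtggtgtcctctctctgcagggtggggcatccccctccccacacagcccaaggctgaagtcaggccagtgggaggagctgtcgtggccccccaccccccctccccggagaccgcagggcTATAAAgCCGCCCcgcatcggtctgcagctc
Tubb3, plus strand, chr8:123411303-123411552: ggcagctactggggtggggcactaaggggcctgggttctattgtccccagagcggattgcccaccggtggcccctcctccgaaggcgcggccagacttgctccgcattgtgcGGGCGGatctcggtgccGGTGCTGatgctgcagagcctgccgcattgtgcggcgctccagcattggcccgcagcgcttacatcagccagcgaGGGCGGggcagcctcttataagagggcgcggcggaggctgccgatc
The Prph window held TATAAA with its first base at position -31 from the start and GGGCGG on the opposite strand at -24. The RefSeq starts of Uchl1 and Tubb3 lie downstream of the GENCODE starts given above, inside those genes. Their windows thus reach into the annotated genes, and positions are counted from the RefSeq start. The Tubb3 window held GGGCGG at -138 and -46 and CAGCACC on the opposite strand at -121. None of these words was in the windows of Uchl1, S100b or the most upstream Elavl4 start; overlapping windows of a pair of inner Elavl4 starts held CAGCTG, at -46 and -62.

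**Figure D1:**
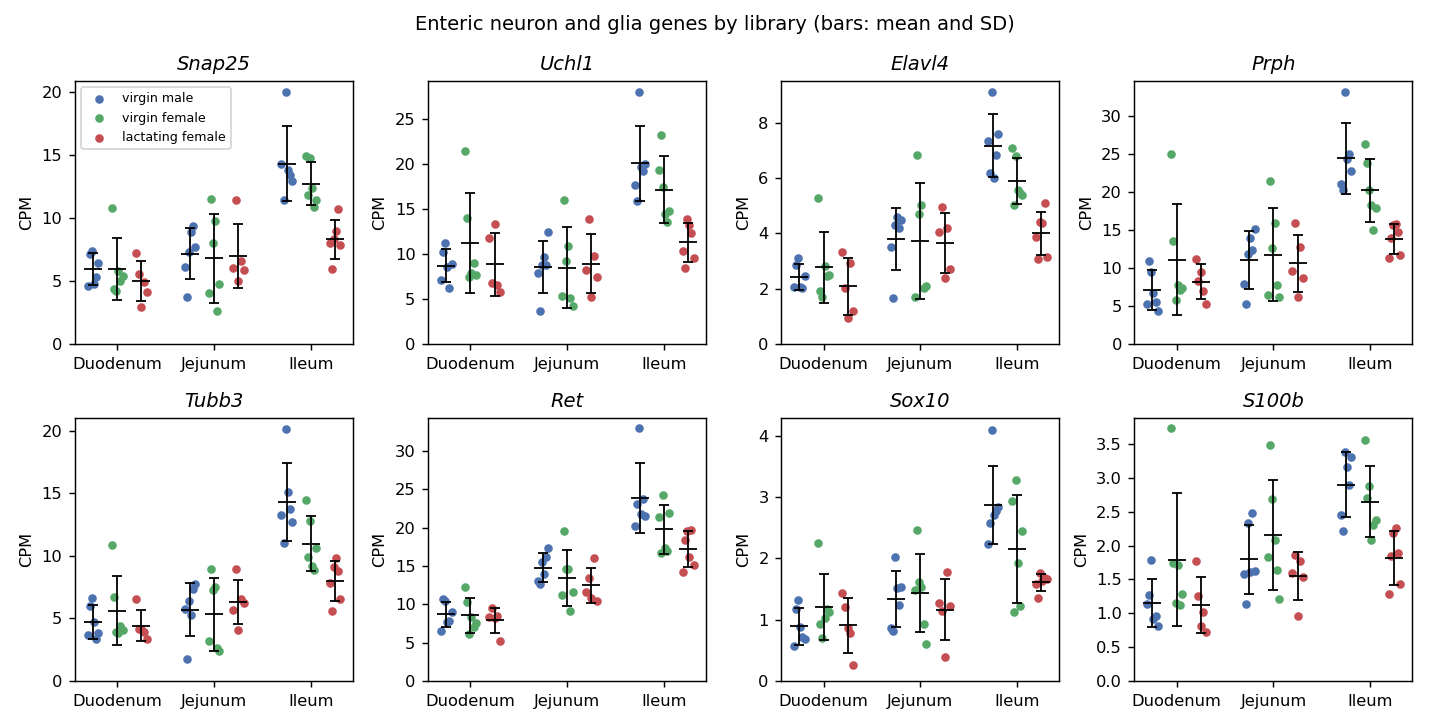
Level of each gene in CPM (vertical axes, each starting at 0) in the 52 libraries, by gut section and by sex and reproductive state; each point is 1 library and black bars give the mean and SD. For Snap25 the 6 lactating ileum libraries lie between 5.99 and 10.8 CPM, all below the virgin female ileum libraries.

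In the ileum, 4 of the 5 neuron genes were lower in lactating than in virgin females. Snap25, Uchl1, Elavl4 and Prph passed the test, and fell by 0.56 to 0.63 on the log2 scale. The other 4 genes had negative estimates as well, without passing: S100b, Tubb3, Sox10 and Ret. Of all 15106 genes tested in the ileum, 2.16% were called, and 0.914% were called lower, against 4 of these 8. The 8 genes were chosen with earlier results of these data known, so this contrast is not independent evidence. In tissue RNA, fewer cells of a type and less RNA per cell cannot be told apart.

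Snap25 ran from 5.99 CPM through a median of 8.18 to 10.8 in the lactating ileum, and from 10.9 through 12.2 to 14.9 in the virgin female ileum. The groups did not overlap, the closest pair being lactating ileum 5 and virgin female ileum 5; 0.868% of genes were separated in this direction. The log2 fold change was -0.63 ± 0.14 (SE; edgeR adjusted p = 0.0244, n = 6 and 6).

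Uchl1 ran from 8.47 through 11.4 to 13.98 CPM in lactating and from 13.6 through 16.2 to 23.3 CPM in virgin females. A single lactating library, ileum 3, stood above the lowest virgin one. The log2 fold change was -0.61 ± 0.16 (adjusted p = 0.0446).

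Elavl4 ran from 3.06 through 4.12 to 5.11 CPM in lactating and from 5.04 through 5.52 to 7.09 CPM in virgin females. Lactating ileum 5 alone reached into the virgin range, and the log2 fold change was -0.57 ± 0.14 (adjusted p = 0.0363). Prph ran from 11.3 through 14.4 to 15.8 CPM in lactating and from 15.03 through 19.3 to 26.3 CPM in virgin females. Virgin female ileum 5, at 15.03 CPM, lay below lactating ileum 3 and 4, and all 6 lactating libraries were below the virgin median (log2 fold change -0.56 ± 0.14, adjusted p = 0.0405).

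Of the genes that did not pass, S100b had a nearly equal estimate, -0.56 ± 0.17 (adjusted p = 0.0795), on a mean of 1.82 ± 0.395 CPM in lactating and 2.65 ± 0.530 CPM in virgin females (SD). Tubb3 stood at 7.96 ± 1.59 against 10.98 ± 2.22 CPM, a log2 fold change of -0.48 ± 0.16 (adjusted p = 0.109). Sox10 stood at 1.61 ± 0.138 against 2.15 ± 0.883 CPM, with a log2 fold change of -0.44 ± 0.23 (adjusted p = 0.322). All 6 lactating libraries were below the virgin median for each of these 3 genes. The Sox10 groups overlapped throughout, since virgin ileum 2 and 5 held less than any lactating library. Ret had the smallest estimate: it stood at 17.2 ± 2.36 against 19.8 ± 3.22 CPM, and 4 of 6 lactating libraries were below the virgin median (log2 fold change -0.22 ± 0.12, adjusted p = 0.385).

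The number of genes called in the ileum rests on single libraries. It ranged from 0 to 4 when each of the 12 female libraries was left out, and was 0 without lactating ileum 1, lactating ileum 6, virgin ileum 1 or virgin ileum 3, 1 without lactating ileum 2, and 2 without lactating ileum 3 or 5. Every estimate stayed negative, between -0.72 and -0.55 for Snap25 and between -0.27 and -0.15 for Ret, and DESeq2 called 5, with S100b added. In a fit of the lactating and virgin female ileum alone, edgeR called 1, Snap25 (adjusted p = 0.0385), and Uchl1, Elavl4 and Prph had adjusted p = 0.0684, 0.0708 and 0.0647.

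**Figure D2:**
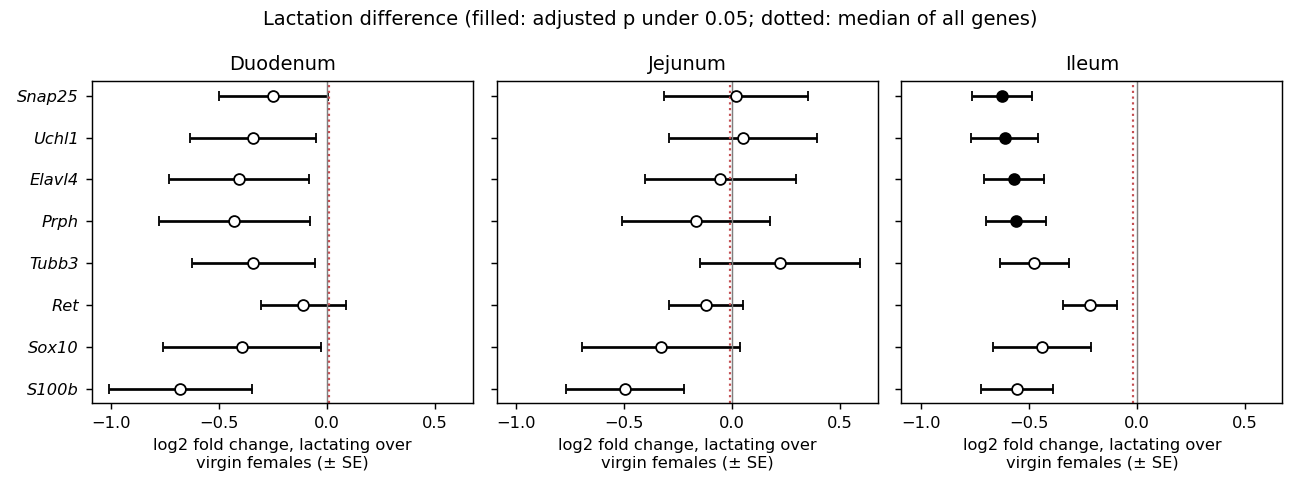
Log2 fold change of each gene in lactating over virgin females in the 3 gut sections (horizontal axes), with bars of 1 SE; filled points passed an adjusted p under 0.05 and the dotted line is the median over all genes tested. All 8 estimates lie left of 0 in the ileum, where 4 passed, and none passed in the duodenum or jejunum.

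In the jejunum none of the 8 genes was called by edgeR, where 1.31% of all genes were called, none had an unadjusted p under 0.05, and DESeq2 called none. Estimates ran from -0.50 for S100b to 0.22 for Tubb3, and 5 of 8 were negative. Snap25 stood at 6.07, 11.4, 5.01, 6.62 and 5.93 CPM in the 5 lactating libraries and ran from 2.67 through 6.42 to 11.6 CPM in virgin females, whose range enclosed all lactating values. Its log2 fold change of 0.02 had a 95% interval from -0.63 to 0.67, wide enough to hold the value seen in the ileum. S100b stood at 1.60, 1.86, 0.955, 1.77 and 1.54 CPM in lactating libraries, all below the virgin female median of 1.959 (log2 fold change -0.50 ± 0.27, adjusted p = 0.411).

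In the duodenum none of the 8 genes was called by edgeR or by DESeq2 and none had an unadjusted p under 0.05, where 0.00662% of all genes were called. All estimates were negative, from -0.68 for S100b to -0.11 for Ret, with a median of -0.37. Without virgin female duodenum 1, the library with the most neuron and glia transcripts of its group, the median was -0.05 and 6 of 8 were negative. That library also held 7574 CPM of the smooth muscle list, above the range of 2944 to 5092 CPM in the other 5.

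The difference of the lactation effect between sections was tested directly. Neither the ileum-minus-jejunum nor the ileum-minus-duodenum contrast called any of the 8 genes (edgeR adjusted p), where 0.0256% and 0.0703% of all genes were called, and none had an unadjusted p under 0.05. The largest ileum-minus-jejunum contrasts were Tubb3 at -0.71 ± 0.40, Uchl1 at -0.68 ± 0.42 and Snap25 at -0.66 ± 0.38 (adjusted p = 0.723, 0.779 and 0.749). The fall in the ileum is thus not shown to differ from the other sections.

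Virgin females and virgin males did not differ in any of the 8 genes by the test, in any section. From duodenum to ileum, 0.0331%, 0.0676% and 0.0993% of all genes were called. Tubb3 in the ileum had the only unadjusted p under 0.05, at -0.37 ± 0.16 for females over males (adjusted p = 0.458), and all 8 ileal estimates were negative, from -0.39 to -0.12.

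Whether the ileal fall follows the epithelial share was asked with lists of marker genes summed in each library. The 20 epithelium genes summed to 19355 to 21676 CPM in the lactating ileum and 16934 to 24796 CPM in the virgin female ileum, with overlapping groups. Their log2 difference was 0.07 ± 0.09 (exact permutation test, 2-sided, p = 0.502; the smallest p of 6 against 6 is 0.00216). Without virgin female ileum 2, the highest library, it was 0.15 with an exact p of 0.00433. Snap25, Uchl1, Elavl4 and Prph fell by 0.56 to 0.63. With an epithelium score as a term of the edgeR fit, the same 4 genes were called, with log2 fold changes of -0.54 for Elavl4 to -0.62 for Uchl1. In the jejunum this term moved the median estimate of the neuron and glia genes from -0.09 to -0.57. Estimates there ran from -0.88 to -0.35, and none was called. Jejunal Snap25 moved from 0.02 to -0.56 ± 0.19 (edgeR adjusted p = 0.157). In the duodenum the median was -0.38 with the term and -0.37 without. The cause of the jejunal shift was not tested.

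Smooth muscle surrounds the larger nerve plexus. Its 16 genes summed to a median of 7639 CPM in lactating and 7627 CPM in virgin ileum, a log2 difference of 0.01 ± 0.11 (exact p = 0.918). Divided by the smooth muscle sum, 6 of 8 genes were lower in lactating ileum after adjustment over 8 genes and 3 sections, from Snap25 at -0.65 ± 0.12 to Tubb3 at -0.49 ± 0.11 (exact permutation, adjusted p = 0.0130 for both). Ret at -0.22 ± 0.16 and Sox10 at -0.34 ± 0.25 did not pass (exact permutation, adjusted p = 0.292 and 0.306). With a smooth muscle score in the edgeR fit, 5 genes were called, Tubb3 being the addition (adjusted p = 0.0237).

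Other lists of the wall had negative estimates. The endothelium list had a log2 difference of -0.24 ± 0.09 (exact permutation p = 0.0260, adjusted p = 0.351), with 0 of 14 genes positive and 1, Pecam1, called lower. The 5 genes of interstitial cells of Cajal, the pacemaker cells beside the plexus, had -0.24 ± 0.07 (exact permutation p = 0.0108, adjusted p = 0.292). The fibroblast list differed by -0.10 ± 0.08 (exact permutation p = 0.264). None of the 27 list and section tests passed adjustment.

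Against the endothelium sum no neuron or glia gene passed: Snap25 was at -0.40 ± 0.18 (exact permutation p = 0.0498, adjusted p = 0.346) and Ret at 0.03 ± 0.18. Against the fibroblast sum none passed either, Snap25 being at -0.54 ± 0.14 (exact permutation, adjusted p = 0.0779). Against the epithelium sum 4 passed: Snap25, Uchl1, Prph and S100b (exact permutation, adjusted p = 0.0260 for each). Whether vessel content has a part in the ileal result was not tested beyond these ratios.

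**Figure D3:**
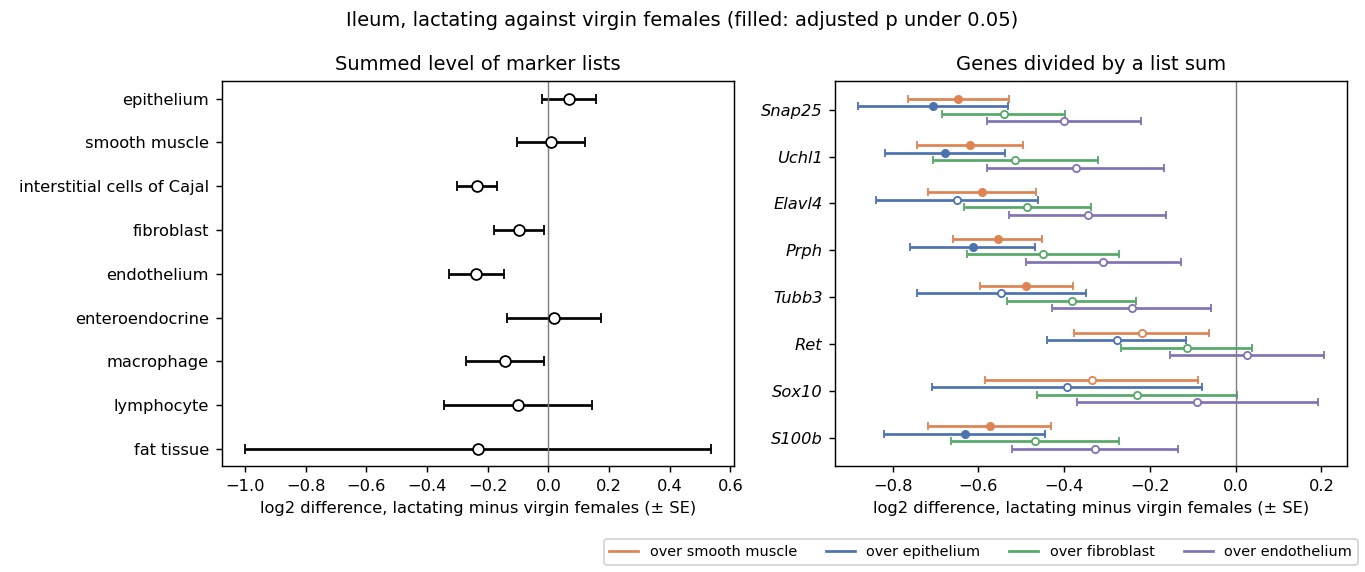
Ileum, lactating minus virgin females on the log2 scale with bars of 1 SE (horizontal axes): left, the summed level of marker lists for other cell types; right, each neuron or glia gene divided by the smooth muscle, epithelium, fibroblast or endothelium sum. Filled points have an adjusted p under 0.05; smooth muscle lies at 0.01, while 6 genes divided by it lie left of 0 and are filled.

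In the jejunum 3 genes passed when divided by the smooth muscle sum: S100b at -0.91 ± 0.24, Prph at -0.54 ± 0.19 and Elavl4 at -0.36 ± 0.15 (exact permutation, adjusted p = 0.0148, 0.0364 and 0.0346). In the duodenum S100b alone passed, at -0.54 ± 0.16 (exact permutation, adjusted p = 0.0260). The smooth muscle sum itself was uneven there, at 2243 to 9322 CPM in virgin jejunum against 4639 to 7488 CPM in lactating jejunum. Leaving out 1 library moved the jejunal count between 0 and 4, with 0 left without lactating jejunum 4 or 6 and 1 without lactating jejunum 1 or virgin jejunum 2, 4, 5 or 6. The duodenal count moved between 1 and 2, being 2 without lactating or virgin duodenum 4. No gene passed in either section with another denominator.

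Within groups, the 8 genes varied with the summed smooth muscle transcripts of the library, and muscle content itself was not measured. After the group means were removed, the deviations of every gene correlated positively with those of the smooth muscle sum in each section. From duodenum to ileum the median Pearson r was 0.74, 0.87 and 0.62, over 17, 17 and 18 libraries. Of the 8 genes, 8, 8 and 6 passed after adjustment over 48 relations (permutation within groups), and 6, 8 and 5 by Spearman's rho. S100b in the duodenum (r = 0.93, rho = 0.83) and Snap25 in the jejunum (r = 0.90, rho = 0.92) were among the closest, and Ret in the ileum (r = 0.38, rho = 0.31, permutation, adjusted p = 0.188) was the weakest. Without the 2 libraries farthest from the median of muscle, r ranged from 0.38 to 0.84 in the duodenum, from 0.66 to 0.89 in the jejunum and from 0.08 to 0.68 in the ileum. The relation was not particular to muscle. Over 52 libraries, r with the smooth muscle list ran from 0.60 for Sox10 to 0.90 for Tubb3. With the list of interstitial cells of Cajal it ran from 0.61 for Uchl1 to 0.84 for Elavl4, and with the fibroblast list from 0.33 for Ret to 0.72 for Tubb3.

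Correlations with the epithelium sum were mostly negative. In the jejunum all 8 were, with a median r of -0.82, and 7 passed. In the duodenum and ileum the medians were -0.34 and -0.26 and none passed. With libraries scaled to their totals alone, the jejunal median was -0.49 and none passed, although all 8 were still negative. With muscle, 8, 8 and 6 genes passed under that scaling. Points of 1 library share its depth and scaling.

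**Figure D4:**
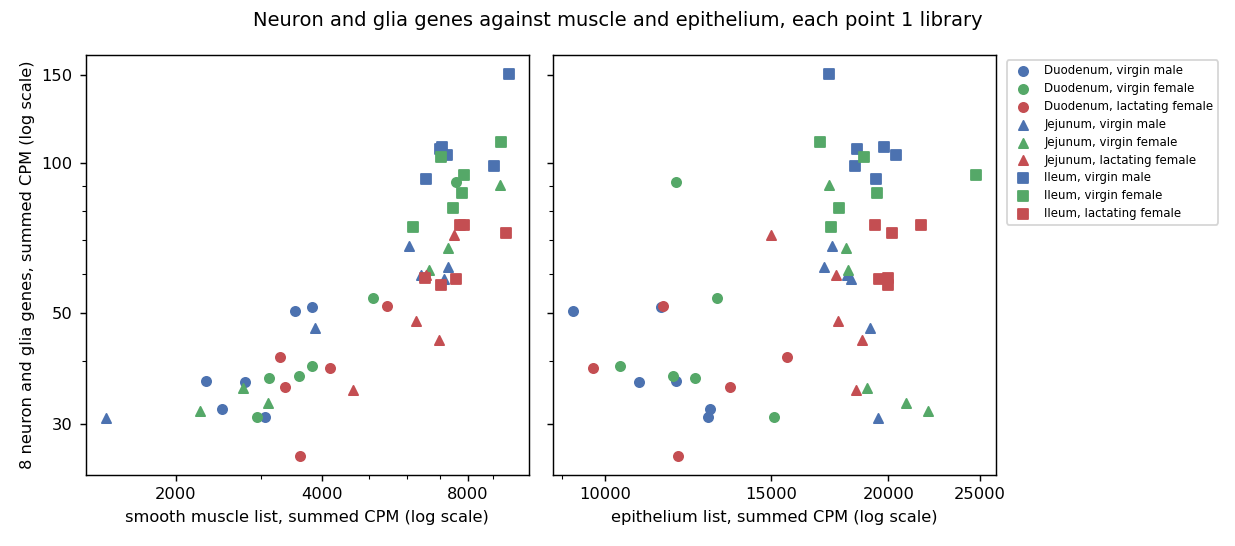
Summed CPM of the 8 neuron and glia genes (vertical axis, log scale) against the summed CPM of the smooth muscle list (left) and of the epithelium list (right, log scales), with 1 point per library, shaped by section and coloured by sex and reproductive state. Libraries rich in smooth muscle transcripts are rich in neuron and glia transcripts. The lactating ileum lies at 57.0 to 75.2 CPM, against 74.4 to 110 CPM in virgin female and 92.8 to 151 CPM in virgin male ileum. The smooth muscle sums of these ileum groups cover a like range.

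Along the virgin gut, the 8 genes had their highest mean levels in the ileum, though fewer passed in females than in males. In virgin males all 8 genes were higher in ileum than in jejunum, with log2 fold changes from 0.69 to 1.33, and all 8 than in duodenum, from 1.23 to 1.81. In virgin females 4 of 8 (Snap25, Uchl1, Tubb3 and Ret) were higher in ileum than in jejunum and 6 of 8 than in duodenum, all but Uchl1 and S100b. These female calls moved when the replicate number was a term of the edgeR fit. Prph was then called for ileum over jejunum as well (adjusted p = 0.0305). For ileum over duodenum, Uchl1 and S100b were called (adjusted p = 0.0386 and 0.0475) and Sox10 was not (adjusted p = 0.0527). The background is high between sections: 34% of all genes were called higher in male ileum than jejunum and 32.7% than duodenum, and in females 23.9% and 21.1%.

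Ret ran from 6.501 through 8.43 to 10.6 CPM in male duodenum, from 12.7 through 14.7 to 17.3 CPM in jejunum and from 20.2 through 22.4 to 33.0 CPM in ileum. The 3 sections did not overlap, and each step passed, at 0.78 ± 0.13 and 0.70 ± 0.13 on the log2 scale (adjusted p = 9.27e-05 and 0.000115). Of all genes, 12.4% were separated upward from male duodenum to jejunum and 21.2% from male jejunum to ileum. In virgin females Ret likewise passed at both steps, at 0.64 ± 0.19 and 0.57 ± 0.18 (adjusted p = 0.0108 and 0.0151). It was the only one of the 8 called between virgin female jejunum and duodenum, where 17.2% of genes were called higher.

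Tubb3 had the largest step from jejunum to ileum in both sexes. It ran from 1.79 through 6.04 to 7.76 CPM in male jejunum and from 11.04 through 13.5 to 20.1 CPM in male ileum, with no overlap (1.33 ± 0.24, adjusted p = 0.000103). In females it ran from 2.38 through 5.24 to 8.95 CPM and from 8.88 through 10.3 to 14.5 CPM, with an overlap of 1 library from each side (1.05 ± 0.33, adjusted p = 0.0131). Uchl1 stood at 8.72 ± 1.85, 8.56 ± 2.87 and 20.1 ± 4.17 CPM in male duodenum, jejunum and ileum (jejunum over duodenum -0.01 ± 0.21, adjusted p = 0.961; ileum over jejunum 1.24 ± 0.20, adjusted p = 2.90e-05).

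Of the glia genes, Sox10 stood at 0.890 ± 0.297, 1.33 ± 0.453 and 2.87 ± 0.638 CPM along the male gut, with 1.11 ± 0.23 for ileum over jejunum (adjusted p = 0.000324). S100b stood at 1.15 ± 0.351, 1.80 ± 0.510 and 2.90 ± 0.478 CPM, with 0.69 ± 0.20 (adjusted p = 0.00541), and in virgin females neither passed for that step. Between male jejunum and duodenum 4 of 8 passed (Elavl4, Prph, Ret and S100b; 24.1% of genes were called higher). This count was 7 without male jejunum 2, whose smooth muscle sum of 1432 CPM was the lowest of all groups, and 2 without male jejunum 5.

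Male ileum and jejunum did not overlap for 7 of 8 genes, against 21.2% of genes in that direction, and male ileum and duodenum for 8 of 8, against 19.7%. In virgin females ileum and duodenum did not overlap for 2 of 8, against 10.9%, and ileum and jejunum for 0 of 8, against 9.43%. Jejunum and duodenum did not overlap for 1 of 8 genes in males (Ret), against 12.4%, and for 0 of 8 in virgin females, against 9.65%. In lactating females the sections were described by level alone, with no test: Ret in jejunum lay above duodenum in every library (1 of 8 genes, against 7.21%), 2 of 8 genes were separated between ileum and duodenum (14.4%) and 0 of 8 between ileum and jejunum (12.5%).

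Smooth muscle transcripts were also highest in the ileum. The sum had medians of 2914, 6229 and 7164 CPM along the male gut and 3697, 4867 and 7627 CPM along the virgin female gut. All 16 smooth muscle genes had positive estimates for female ileum over jejunum, with a median log2 fold change of 0.77 beside 0.73 for the 8 neuron and glia genes. With a smooth muscle score in the fit, female calls fell from 4 to 0 for ileum over jejunum and from 6 to 1 for ileum over duodenum. In males 7 of 8 and 6 of 8 were still called, with median estimates of 0.65 and 0.76. Enteroendocrine cells share secretory genes with neurons. The sum of their list went the other way, with medians of 538, 308 and 189 CPM along the male gut. Such a sum is weighted to the most abundant genes and does not give the direction of each.

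**Figure D5:**
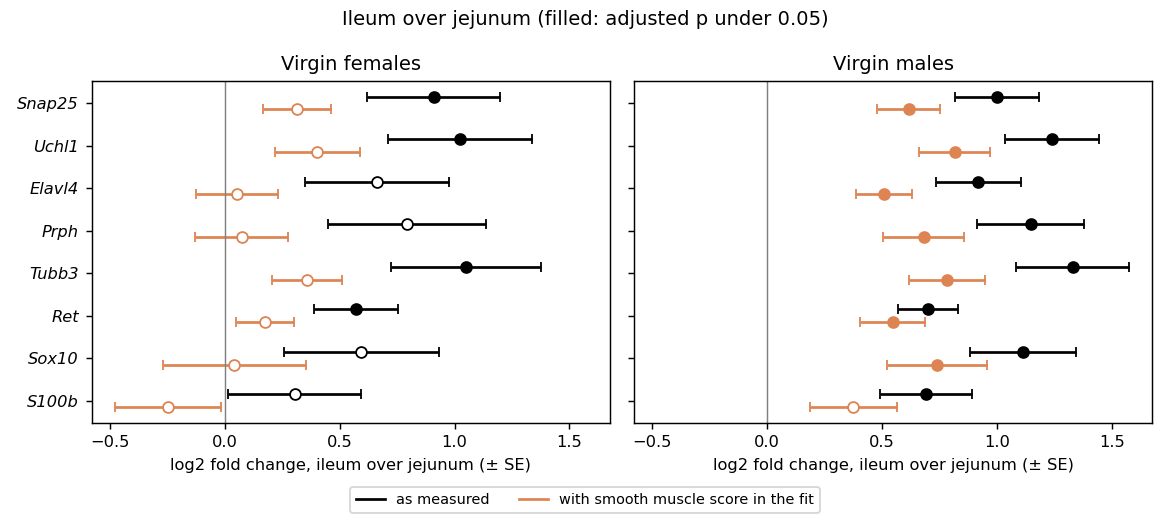
Log2 fold change of ileum over jejunum (horizontal axes, bars of 1 SE) for each gene in virgin females and virgin males, as measured (black) and with a smooth muscle score as a term of the fit (orange); filled points have an adjusted p under 0.05. With the score, none of the 8 stays filled in females, and 7 of 8 do in males.

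Wider lists of neural genes were read beside the 8. They held 93 genes in 6 lists: synaptic release, neuronal structure, transmitters, neural crest regulators, Ret ligands and co-receptors, and enteric glia. In the ileum 83 were tested between lactating and virgin females, 72 had negative estimates, 41 had an unadjusted p under 0.05, and 0 were called lower and 2 higher by edgeR. Over all 15106 genes, 8215 estimates were negative, 2703 had an unadjusted p under 0.05, 138 were called lower (0.914%) and 189 higher, or 2.16% in either direction, so the number of list genes called is near the background. The median log2 fold change was -0.02.

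The medians were -0.28 for synaptic release, -0.42 for neuronal structure, -0.46 for transmitters, -0.22 for neural crest regulators, -0.38 for Ret ligands and co-receptors and -0.34 for enteric glia. All 19 genes of neuronal structure were negative. Gfra1 and Gfra2, co-receptors that present GDNF and neurturin to Ret, had -0.47 ± 0.19 and -0.41 ± 0.19 (adjusted p = 0.181 and 0.255). The genes that passed went up: Stx1a, a syntaxin of vesicle release, from 7.60 ± 0.635 to 10.9 ± 1.83 CPM (0.51 ± 0.10, adjusted p = 0.0149), and Edn3, the endothelin that acts on neural crest cells through Ednrb, from 51.6 ± 7.12 to 72.2 ± 13.9 CPM (0.47 ± 0.12, adjusted p = 0.0486). Their direction was opposite to that of the 8 genes, and which cells held these transcripts was not tested. In virgin female jejunum the neural crest regulator sum stayed at 469 to 494 CPM, while the 8 summed genes ran from 31.8 to 90.3 CPM. Such a sum is weighted to its most abundant genes. Over 52 libraries, r of the 8 genes with the neural crest regulator list was positive, from 0.55 for Ret to 0.88 for Tubb3.

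In the jejunum and duodenum none of these list genes was called between lactating and virgin females (edgeR), while 1 of 82 and 7 of 83 had an unadjusted p under 0.05. Negative estimates numbered 44 of 82 and 64 of 83. Between female and male ileum 66 of 83 were negative, 11 had an unadjusted p under 0.05 and none was called.

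Along the male gut 58 of 84 list genes were higher and 5 lower in ileum than in jejunum, and along the female gut 31 and 5. Of all genes 34% were called higher and 30.2% lower in males, and 23.9% and 24.1% in females. Nefl, a neurofilament, led neuronal structure with 2.61 ± 0.29 in males and 2.45 ± 0.36 in females (adjusted p = 2.62e-07 and 1.58e-05). Among transmitter genes, Tac1, the gene of substance P, rose by 1.56 ± 0.23 in females and Gal, the gene of galanin, by 1.33 ± 0.43 in females and 1.58 ± 0.29 in males. Gfap, the glial filament gene, rose by 1.15 ± 0.37 in females and 1.97 ± 0.30 in males. Tbx3 fell by 0.75 in females and by 1.00 in males. The lists did not all sum highest in the ileum. The enteric glia sum had medians of 771, 1067 and 629 CPM along the male gut and 687, 990 and 660 CPM along the female gut, and the neural crest regulator sum 311, 495 and 324 CPM and 277, 482 and 350 CPM. Erbb3, a neuregulin receptor of glia that epithelium also expresses, held the most reads of the glia list, with no scaling to length, and fell by 0.82 from jejunum to ileum in males and by 0.72 in females; it was named after its values were seen. Mal, a membrane protein of myelin that epithelia also express, had the largest step of the glia list, at 3.26 ± 0.36 and 3.53 ± 0.47.

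The 8 genes moved together from library to library. After the 9 group means were removed, Pearson r between pairs ran from 0.61 for Snap25 and Sox10 to 0.91 for Uchl1 and Prph over 52 libraries. Among 15811 genes, the most alike were Tcaf1 for Snap25 (r = 0.92), Stmn3 for Uchl1 (0.93), Snap25 for Elavl4 (0.90), Gap43 for Prph (0.92), Clmp for Tubb3 (0.94), Add2 for Ret (0.79), Kcna1 for Sox10 (0.81) and Sncg for S100b (0.86). The next ranks held neuron genes such as Gap43 for Uchl1 and Kif5a for Ret, and also Mylk and Smtn, 2 genes of the smooth muscle list, for Elavl4 and Tubb3. The median absolute r of a gene with any other gene ran from 0.19 for Ret to 0.25 for Tubb3.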

How the data were processed

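Polyadenylated RNA was read with a directional kit, per the labels' protocols. The deposited files hold raw read counts per gene symbol in 3 columns, with no scaling by the authors seen in the files; the 2 stranded columns differ, and column 4 was used. STAR 2.7.7a, FastQC 0.11.5, DESeq2 1.34.0 and the build GRCm38 appear in the submitters' processing notes; the annotation is not given in the sources used here. Reads in no gene, 20.0% to 31.7% of each library, were left out of library sizes. Of the symbols, 24366 matched GENCODE M21, used for coordinates and exonic lengths.

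Counts were tested with edgeR 4.0.16 (R 4.3.3): quasi-likelihood F test, expression filter (minimum count 10, minimum total 15), TMM scaling, Benjamini-Hochberg adjustment over all genes tested, called at an adjusted p under 0.05. Lactation and sex were fitted per section (17, 17 and 18 libraries), sections in the 18 virgin female and the 18 virgin male libraries, and differences of the lactation effect over the female libraries. Log2 CPM used a prior count of 2. Summed lists and ratios were tested by exact permutation within each section's TMM scaling, and correlations by 100000 permutations within groups. Scripts were tested on simulated data.

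The 8 genes and all lists were chosen with earlier results of these data known. From each neural list the text draws on up to 3 called genes with the largest change and a mean log2 CPM of at least 0, or the 2 highest where none was called, and for each of the 8 genes the 3 most alike. Alternatives were other scalings and filters, DESeq2 1.42.0, fits of only the 2 groups compared, a replicate block, scores as covariates, other denominators, all libraries as labelled, and leaving out each library.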

Additional observations from a re-analysis of the deposited data

Results flagged for a closer look

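In 12 of 72 groups of libraries and genes, 1 library stood far from the others. Chance flags about 1 in 20 groups, but the 8 genes share libraries and vary together. The groups are therefore not independent, and no excess over chance is read from the count. Virgin male ileum 3 was the highest of 6 for Snap25 (20.04 CPM), Uchl1 (28.1 CPM), Prph (33.1 CPM), Ret (33.0 CPM) and Sox10 (4.10 CPM). Its smooth muscle sum was 9720 CPM, the highest of its group. Virgin female duodenum 1 was the highest for Snap25 (10.8 CPM), Elavl4 (5.27 CPM), Sox10 (2.24 CPM) and S100b (3.74 CPM), with a smooth muscle sum of 7574 CPM, also the highest of its group. Lactating jejunum 2 was the highest of 5 for Snap25 (11.4 CPM), and lactating duodenum 1 for Tubb3 (6.53 CPM). Virgin male jejunum 2 was the lowest for Elavl4 (1.68 CPM), with the lowest smooth muscle sum of its group, at 1432 CPM. The part of muscle content in these values was not tested beyond the correlations above. Without virgin male ileum 3, all 8 genes were still called higher in male ileum than in jejunum and duodenum, and without virgin female duodenum 1 the count for female ileum over duodenum was 8 in place of 6.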

How the results depend on the processing

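Over the single genes and comparisons, 2248 of 2350 values from alternatives kept their direction and side of the threshold, 78 lost the call, 24 gained one and 0 called values changed sign; 116 uncalled ones did. In the lactating ileum the main count of 4 was 2 with the replicate block (Snap25 and Elavl4), 1 in a fit of the 2 compared groups and 0 to 4 leaving out 1 library. Same-numbered libraries had a median r of 0.19, 0.05 and -0.03 in duodenum, jejunum and ileum, against -0.07, -0.02 and 0.02 for other pairs. Only 10 of 16, 7 of 16 and 3 of 18 of these pairs, which join different groups of a section, were above 0.1. Across sections, same-numbered libraries had a median r of 0.07 in virgin females and 0.08 in virgin males. Other pairs had -0.02 in both, and 9 of 18 and 8 of 18 same-numbered pairs were above 0.1. The numbers were not read as pairs. The labels do not say whether same-numbered libraries of different sections share an animal, and the main section tests treated them as independent. With library totals alone, calls were 0 for female jejunum over duodenum (main 1), 7 for female ileum over jejunum (main 4) and 1 for male jejunum over duodenum (main 4), 0 genes correlated with epithelium in the jejunum (main 7), and the jejunal epithelium difference of -0.11 passed unadjusted (main -0.13). With the smooth muscle score, calls were 2, 0 and 1 for female jejunum over duodenum, ileum over jejunum and ileum over duodenum (main 1, 4 and 6) and 2 for male jejunum over duodenum (main 4). For jejunum over duodenum, the 2 calls in each sex were Ret, higher, and Uchl1, lower. Uchl1 stood at -0.49 ± 0.16 in females and -0.42 ± 0.15 in males (edgeR adjusted p = 0.0177 and 0.0255). Leaving out 1 library gave 4 to 6, 4 to 8 and 2 to 7 for female ileum over jejunum, female ileum over duodenum and male jejunum over duodenum. Genes passing over the smooth muscle sum (1, 3 and 6) numbered 0, 0 and 0 with fibroblast and with endothelium as denominator and 0 and 0 in duodenum and jejunum with epithelium. The jejunal count was 1 with all libraries as labelled, and leaving out 1 library gave 1 to 2, 0 to 4 and 6 to 7.

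Leaving out 1 library moved the epithelium difference between -0.09 and 0.08, -0.15 and -0.07, and 0.031 and 0.147 in duodenum, jejunum and ileum. The causes of these shifts were not tested. Sox10 and S100b rest on as few as 6 and 17 reads in a library, which limits their precision.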
